A study of Drosophila melanogaster and Drosophila simulans and Drosophila yakuba with 4 samples.

Results

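Odorant-binding protein (Obp) genes were examined in RNA from whole white prepupae of Drosophila melanogaster, the animals at the start of pupariation. Members were the genes of the D. melanogaster table whose symbol is Obp followed by the number of a division of the polytene chromosome map, and 50 of the 51 genes so named had a value, out of 15492 genes listed. Obp50c was not analysed here. White prepupae of 4 species were sequenced, and with 1 RNA-seq library for each species nothing was tested between groups and p-values are not given. Sources used here give neither the strain nor the sex of the animals, no treatment or mutant is named, and all tissues were pooled. For the library used, the title says D. melanogaster but the organism field says D. yakuba, and for the D. yakuba title the reverse holds. Grouping followed the titles: a D. melanogaster gene table contains 14872 of the identifiers in the table so titled, and 0 of those in the table titled D. yakuba. Genes of the other species were not matched to these members.

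Odorant-binding proteins are small secreted proteins held together by disulfide bridges, with a pocket that takes up hydrophobic ligands. They are best known from the lymph around the dendrites of olfactory and taste neurons, where accessory cells release them, and from seminal fluid. Structural groups are told apart by their cysteines: the classic form has the full conserved set, Minus-C proteins have lost a pair, Plus-C proteins carry additional ones, and double-domain proteins hold a pair of copies in 1 chain. In Drosophila many members arose by tandem duplication and lie side by side.

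Levels are FPKM, fragments counted per kilobase of transcript, relative to all mapped fragments, with the lower and upper bounds that Cufflinks gave. The reads behind a value were worked out from those bounds. The implied total of the library was 12039459 reads, and the members together held 85981 of them, or 0.714%. Larval serum and fat body genes, which mark this stage, ran from 246 FPKM for Lsp1alpha to 14160.2 FPKM for Fbp2 (6 genes). All 4 salivary gland markers were at 434 FPKM or more. Because whole animals were measured, few cells with much Obp RNA and many cells with little cannot be told apart.

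The family was split between a few genes of very high level and many near or at 0. At FPKM 1 or more stood 24 of the 50 members (48.0%, against 74.5% of all genes listed), and 11 stood at FPKM 10 or more (22.0%, against 43.3%). At FPKM 100 or more stood 6 members (12%, against 9.28% of all genes), of which 4 were at FPKM 1000 or more (8.0%, against 1.1%) and 2 between 100 and 1000 (4.0%, against 8.17%). At the other end 26 members were below FPKM 1 (52.0%, against 25.5%). Of these, 11 were listed at 0 (22.0%, against 10.9%), and 15 lay above 0 (30.0%, against 14.6%). The median of the members was 0.915 FPKM, that of all genes listed 6.90 FPKM, and that of the 3224 genes that encode proteins of 100 to 250 residues, the size of 49 of the members, 19.2 FPKM. The count at FPKM 1 or more depends on that minimum, with 37 members at 0.1 FPKM or more and 15 at 5 FPKM or more.

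**Figure D1:**
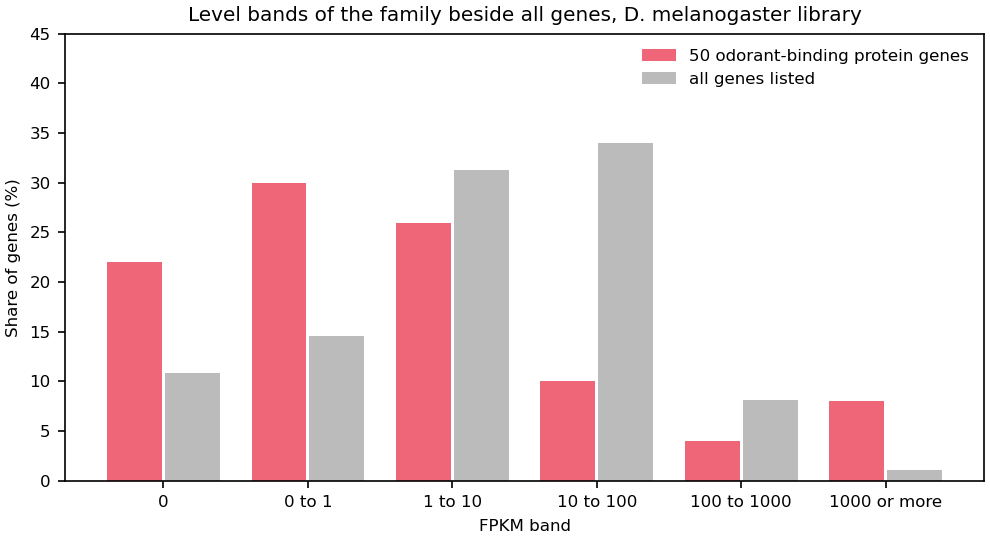
Share of genes (%, vertical axis) in each FPKM band (horizontal axis) for the 50 odorant-binding protein genes (red bars) and all 15492 genes listed (grey bars) in the D. melanogaster library. The family stands above all genes in the bands at 0, from 0 to 1 and at 1000 or more, and below them in the 3 bands between.

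Obp99b (FBgn0039685), a Minus-C protein, was the highest member with 12912 FPKM (Cufflinks bounds 12809 and 13014, 63595 implied reads). It lies on chromosome 3R of dm3 from 25541976 to 25542618, on the minus strand. It was the 6th of all 15492 genes by FPKM and held 76.6% of the summed FPKM of the family, or 74.0% of its reads (95% exact binomial interval 73.7% to 74.3%, counting error only). Obp99b alone carried 0.528% of the reads of the library.
A group of 3 genes followed, and the FPKM of Obp99b was 10.4 times that of the next. Obp56d (FBgn0034470), a classic member, stood at 1237 FPKM (bounds 1205 and 1268), on 2R from 15590635 to 15591300. Obp99c (FBgn0039682), a Minus-C member, stood at 1188 FPKM (1157 and 1219.95), on 3R from 25511458 to 25515033. Obp44a (FBgn0033268), also Minus-C, stood at 1152 FPKM (1126 and 1178), on 2R from 4021875 to 4022588. The bounds of Obp56d overlap those of Obp99c, and those of Obp99c overlap those of Obp44a, but those of Obp56d and Obp44a are apart. By reads, which are not scaled to transcript length, the order changes, with 7840 implied reads for Obp44a, 6315 for Obp56d and 5639 for Obp99c.
Obp83ef (FBgn0046876), a double-domain member, at 112 FPKM (105.1 and 119.8) and Obp99a (FBgn0039678), a Minus-C member, at 104 FPKM (95.4 and 113) came next, and their bounds overlap. These 6 genes held 99.1% of the summed FPKM of the family. Of the 38 steps between neighbors in the order of levels, the bounds were apart in 3: below Obp99b, below Obp44a and below Obp99a. The steps therefore set off 1 gene, a group of 3 and a group of 2, and further down no member was separated from the next.

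**Figure D2:**
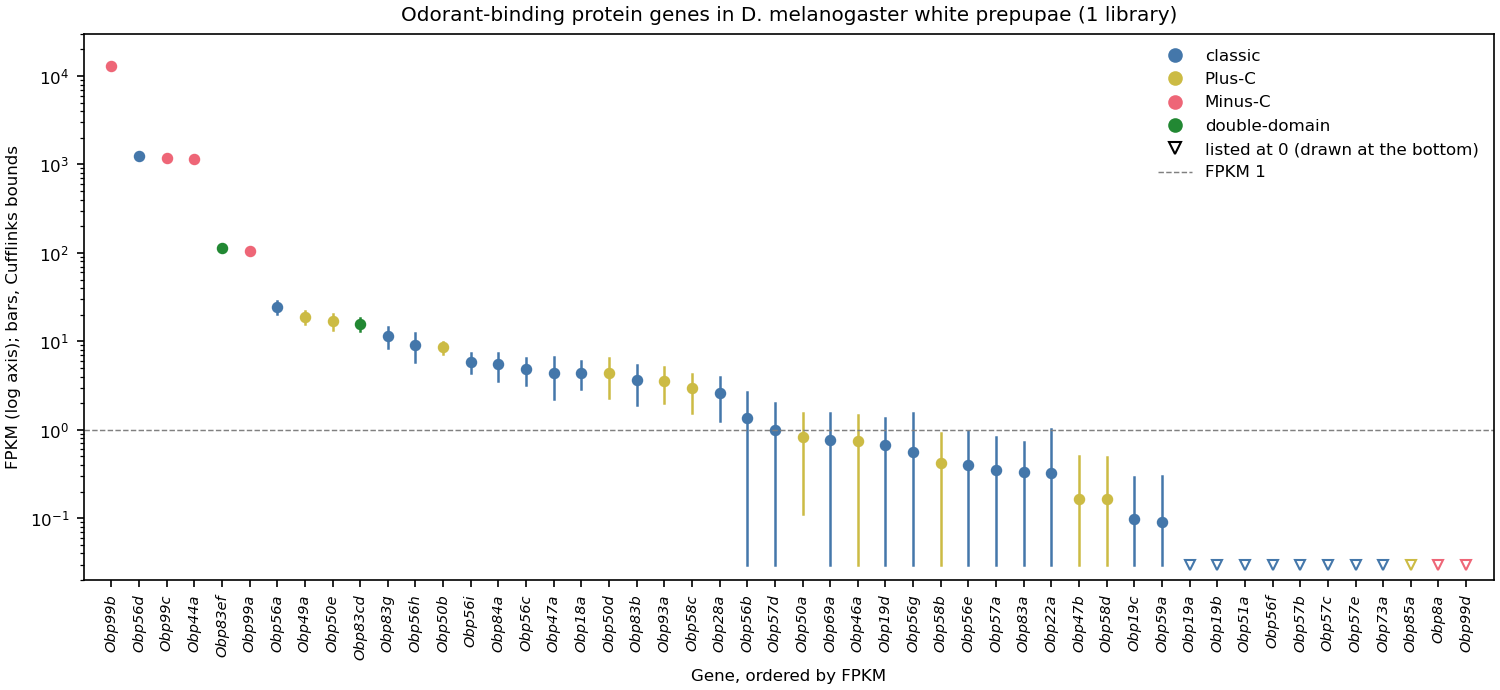
FPKM of the 50 members (log axis), ordered from the highest to the lowest, with vertical bars for the Cufflinks bounds and colors for the structural group. Open triangles are the 11 members listed at 0, drawn at the bottom of the axis, and bars that reach the bottom have a lower bound of 0. Obp99b stands alone at 12912, 3 genes lie between 1152 and 1237, and the levels then fall through Obp83ef and Obp99a to a long tail.

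Members of moderate level, from 10 to 100 FPKM, were 5 in number (10%, against 34% of all genes). Obp56a was at 24.5 FPKM (20.1 and 28.9), Obp49a at 18.9 FPKM (15.8 and 22.0), Obp50e at 16.9 FPKM (13.5 and 20.3), Obp83cd at 15.7 FPKM (13.2 and 18.2) and Obp83g at 11.5 FPKM (8.41 and 14.6). Obp49a is known from adult taste sensilla, where it takes part in the suppression of sweet taste by bitter compounds.
Another 13 members (26.0%, against 31.3%) were low, from 9.07 FPKM for Obp56h to 1.35 FPKM for Obp56b. In order these were Obp56h, Obp50b at 8.56, Obp56i at 5.87, Obp84a at 5.53, Obp56c at 4.83, Obp47a at 4.42, Obp18a at 4.39, Obp50d at 4.35, Obp83b at 3.66, Obp93a at 3.53, Obp58c at 2.93, Obp28a at 2.61 and Obp56b. Obp28a and Obp83b are both abundant in adult olfactory sensilla, and here they rested on 15 and 17 implied reads. Obp56b, the last member past FPKM 1, rested on 4 reads and had a lower bound of 0.

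The 15 members above 0 and below FPKM 1 had at most 5.34 implied reads each. They ran from Obp57d at 0.992 FPKM through Obp50a, Obp69a, Obp46a, Obp19d, Obp56g, Obp58b, Obp56e, Obp57a, Obp83a, Obp22a, Obp47b, Obp58d and Obp19c to Obp59a at 0.0905 FPKM. Obp50a at 0.839 FPKM was the only one of these 15 whose lower bound, 0.113, was above 0. Obp59a, known from adult humidity sensing, and Obp83a, an antennal protein of the adult, rested on 0.729 and 3 implied reads.
Listed at 0 were Obp8a, Obp19a, Obp19b, Obp51a, Obp56f, Obp57b, Obp57c, Obp57e, Obp73a, Obp85a and Obp99d. None of 83 cytosolic ribosomal protein genes was listed at 0 or below FPKM 1, so they do not show what a 0 means for a gene of low level. A count of 0 allows up to 3 reads, and 3 reads are worth from 0.152 to 1.26 FPKM in the members with reads. The genes listed at 0 and most of the 15 with a few reads were therefore not distinguishable at this depth.

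By map position the 50 members fell into 22 divisions, of which 8 held more than 1 member (36 members) and 14 held 1. With at most 20 kb between neighbors, 32 members formed 10 clusters and 18 lay alone. At FPKM 1 or more stood 15 of the 32 clustered members and 9 of the 18 others. Both counts were near the share of the family (48.0%), which was below that of all genes listed (74.5%). In 3 clusters no member reached FPKM 1, in 2 every member did, and in 5 the members lay on both sides. Of the 6 members at FPKM 100 or more, 5 lay in a cluster, and Obp44a lay alone.

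The genes of division 99 on 3R carried 84.2% of the summed FPKM of the family, and Obp99b alone carried 76.6%. Obp99a and Obp99c are 13.4 kb apart, with genes of other families between them, and the FPKM of Obp99c was 11.4 times that of Obp99a (95% interval 10.4 to 12.5, exact binomial on implied reads, counting error only, as for the ratios that follow). Further along, after a gap of 25.2 kb, lie Obp99d and Obp99b with 1301 bp between them, on opposite strands. Obp99d was listed at 0, and the reads of Obp99b were 21198 times the 3 that a count of 0 was taken to allow. That figure is not a 95% bound, since the Poisson upper limit for 0 is 3.69 reads. Dup99B, a peptide gene of the adult male ejaculatory duct, lies between them and was also listed at 0. The highest member and a member listed at 0 are thus immediate neighbors within the family.

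Division 56 on 2R holds 9 members, of which 6 form a cluster of 16254 bp from Obp56a to Obp56f. Along the chromosome their levels were 24.5 FPKM for Obp56a, 1.35 for Obp56b, 4.83 for Obp56c, 1237 for Obp56d, 0.400 for Obp56e and 0 for Obp56f. One gene stood out, and it held 97.4% of the reads of the cluster. The FPKM of Obp56d was 3088 times that of Obp56e, 8549 bp away, with an interval of 855 to 25506 because Obp56e had 2 reads. That of Obp56a was 18.2 times that of Obp56b, 330 bp away (6.92 to 67.7). The other members of the division lie further along: Obp56g, a seminal fluid protein of the adult, at 0.564 FPKM, Obp56h at 9.07 FPKM and Obp56i at 5.87 FPKM, each more than 30 kb from the next.

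Division 83 on 3R holds 2 clusters 131 kb apart that differed in level. In the first, Obp83a (OS-F) was at 0.335 FPKM and Obp83b (OS-E) at 3.66 FPKM, a ratio of 10.9 (3.16 to 58.2) on 3 and 17 reads. Both are known from the same antennal sensilla of the adult. In the second, Obp83cd at 15.7 FPKM, Obp83ef at 112 FPKM and Obp83g at 11.5 FPKM were all past FPKM 10. Obp83ef was 7.16 times Obp83cd (6.06 to 8.51) and 9.77 times Obp83g (7.44 to 13.1). The loci of Obp83cd and Obp83ef overlap by 56 bp on opposite strands, and no source used here states the strand of the reads, so reads of the shared stretch cannot be told apart.

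The Plus-C genes of division 50 on 2R lay between 0.839 and 16.9 FPKM. Within 5001 bp, Obp50a was at 0.839 FPKM, Obp50b at 8.56, Obp50d at 4.35 and Obp50e at 16.9. Obp50e was 3.88 times Obp50d (2.33 to 6.81), and Obp50b 1.97 times Obp50d (1.21 to 3.40). In the cluster of divisions 58 and 59, also on 2R, Obp58c at 2.93 FPKM was the one member past FPKM 1. It was 6.96 times Obp58b (2.03 to 36.9) and 17.7 times Obp58d (2.79 to 737), while Obp59a had the lowest level above 0 in the family.

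The 3 clusters with no member at FPKM 1 were the 4 genes of division 19 on X and both clusters of division 57 on 2R. Together these 9 genes had 10.5 implied reads in the library. In division 19, Obp19a and Obp19b were listed at 0, Obp19c was at 0.0984 FPKM and Obp19d, an antennal protein of the adult, at 0.667 FPKM. In division 57, Obp57b, Obp57c and Obp57e were listed at 0, Obp57a was at 0.347 FPKM and Obp57d at 0.992 FPKM. Obp57d and Obp57e act in taste hairs of the adult leg. The locus of Obp57d overlaps that of the cuticle gene Cpr57A, which was at 6.80 FPKM.

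**Figure D3:**
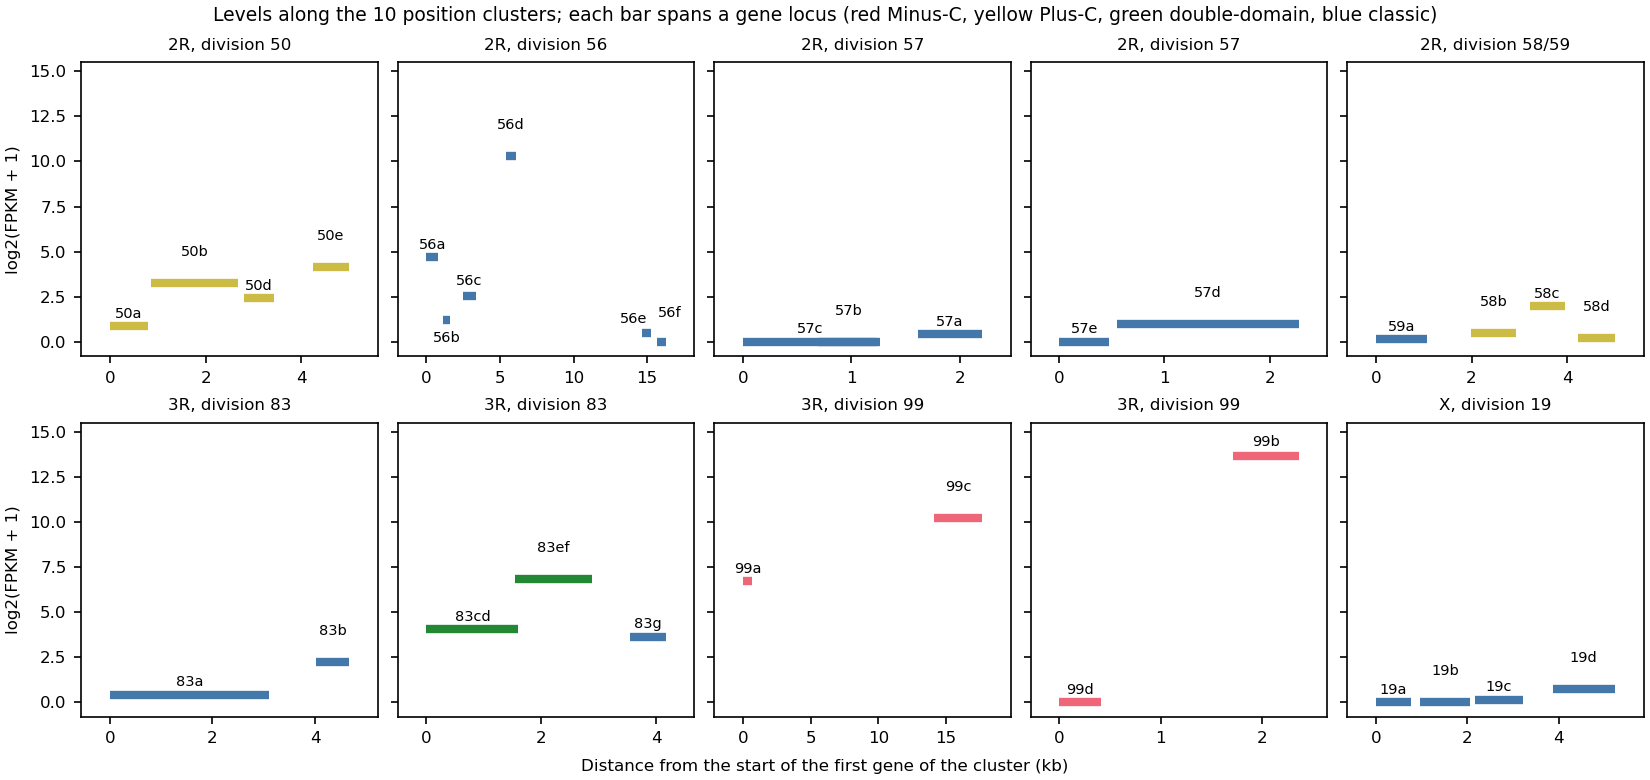
Level as log2(FPKM + 1) (vertical axis) against distance in kb from the start of the first gene (horizontal axis) in the 10 clusters, with each bar spanning a gene locus. Obp99b and Obp56d stand far above their neighbors Obp99d and Obp56e, and all genes of divisions 19 and 57 lie near 0.

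Levels of neighbors in a cluster were compared as pairs. Over 22 pairs of neighboring members the median absolute difference of log2(FPKM + 1) was 1.60, beside 2.06 over the 1182 pairs of members in different clusters or alone. These pairs share members and were not tested. In 8 of the 22 pairs both genes were below FPKM 1, where the pseudocount of 1 keeps the difference small. With a pseudocount of 0.1 the medians were 2.69 and 3.46, and over the 14 neighboring pairs with a gene at FPKM 1 or more, chosen after seeing the data, 2.57 beside 2.78. Of the 22 pairs, 11 lie on the same strand and 11 on opposite strands.

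The genes that flank the high members were mostly lower, as most genes are, since 9.28% of all genes listed were at FPKM 100 or more. The nearest genes of other families not overlapping Obp99b were at 0 (Dup99B) and 12.2 FPKM (CG15506), and those of Obp99a were at 0.208 and 2.83 FPKM. Those of Obp44a were at 25.6 and 11.8 FPKM, those of Obp56d at 10.2 and 175 FPKM, and those of Obp99c at 19.7 and 0.718 FPKM. For Obp83ef they were Gasp, a chitin-binding protein gene, at 120.3 FPKM, and Vha14-2 at 23.0 FPKM. Gasp lies 8792 bp away, beyond Obp83cd, at a level near that of Obp83ef (112 FPKM). The bounds of Gasp and Obp83ef were not compared.
In all, the loci of 14 members overlap another listed gene. Obp93a at 3.53 FPKM overlaps CG5793 at 231 FPKM, and Obp47b at 0.167 FPKM lies within CG7741 at 24.0 FPKM. Obp84a at 5.53 FPKM overlaps Dtwd2 at 4.97 FPKM. Obp44a shares 5 bp with Pabp2 at 96.0 FPKM, and Obp99c shares 23 bp with Gycalpha99B at 0.107 FPKM, both below the member. By exons of the newer Ensembl annotation, Obp44a shares 205 of 1076 bp with Pabp2. There Obp84a shares 663 of 817 bp and Obp93a 492 of 591 bp with the genes named. All exon sequence of Obp47b (611 bp) and of Obp57d (1488 bp) is shared with CG7741 and Cpr57A. The part of overlap in these levels was not tested.

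By chromosome arm, 2R held 28 members, 13 of them at FPKM 1 or more, and 3R held 12, with 9 at FPKM 1 or more and 4 of the 6 at FPKM 100 or more. Across all arms 48.0% of the members and 74.5% of all genes listed were at FPKM 1 or more. Shares of all genes on each arm were not computed. The median was 0.915 FPKM on 2R and 8.52 FPKM on 3R. Of the 6 members on X, Obp18a at 4.39 FPKM alone reached FPKM 1. On 2L, Obp28a was at 2.61 FPKM and Obp22a at 0.324 FPKM, and on 3L, Obp69a was at 0.771 FPKM and Obp73a was listed at 0.

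By structure, the Minus-C genes held 91.1% of the summed FPKM of the family, and Obp99b alone held 76.6%. All 4 members of division 99 are Minus-C, so this share and that of division 99 rest largely on the same genes. Of the 6 Minus-C genes, Obp99b, Obp99c, Obp44a and Obp99a were at FPKM 100 or more. Obp8a and Obp99d were listed at 0, and none lay in between. Among all genes listed, 9.28% were at FPKM 100 or more and 10.9% were listed at 0. Both double-domain genes were past FPKM 10, beside 43.3% of all genes listed at FPKM 10 or more. Of 30 classic genes, with which members of less typical structure such as Obp59a and Obp73a were counted, 12 were at FPKM 1 or more, and the median was 0.616 FPKM. Of 12 Plus-C genes 6 reached FPKM 1, the median was 1.89 FPKM, and the highest was Obp49a at 18.9 FPKM. The counts of classic and Plus-C genes past FPKM 1 were near the family share of 48.0%, beside 74.5% of all genes listed. The members encode proteins of 117 to 259 residues. All 6 members at FPKM 100 or more have 2 exons in the annotated transcript with the longest coding sequence, as do 27 of the 50 members.

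**Figure D4:**
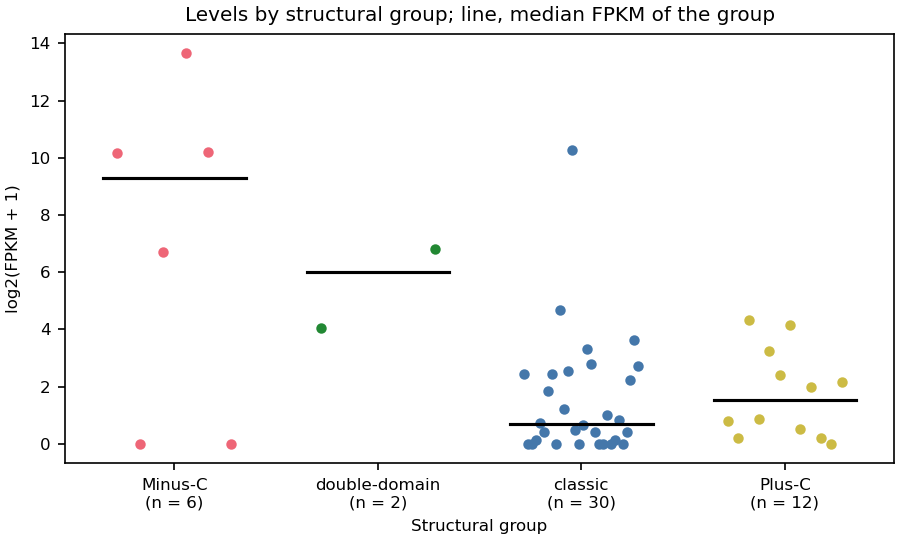
Level as log2(FPKM + 1) (vertical axis) of each member (points) in 4 structural groups (horizontal axis), with a line at the median FPKM of the group. Minus-C genes are either at FPKM 104 or more or listed at 0, and Obp56d at 1237 FPKM stands apart from the other classic genes.

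Members known as seminal fluid proteins of adult males were at or near 0 apart from Obp56i. Of 7 such members, Obp56i at 5.87 FPKM was at FPKM 1 or more, Obp8a, Obp51a and Obp56f were listed at 0, and Obp22a, Obp56e and Obp56g were between 0.324 and 0.564 FPKM. In the whole family 48.0% were at FPKM 1 or more and 22.0% were listed at 0. For all genes listed these shares were 74.5% and 10.9%. Among 12 measured genes of the adult male accessory gland, 8 were listed at 0, and 2 were at FPKM 1 or more, Acp63F at 15.1 and Acp95EF at 79.5 FPKM. The gene for sex peptide, SP, was listed at 0.
Of 10 listed members known from adult taste or olfactory organs, 4 were at FPKM 1 or more: Obp49a, Obp84a, Obp83b and Obp28a. In the whole family 48.0% were, and among all genes listed 74.5%. The median of these 10 was 0.881 FPKM, beside 0.915 FPKM for all members. This list is a selection made with earlier results of these data known. It holds none of the 6 members at FPKM 100 or more. Whether those also act in adult sense organs cannot be read from it.
Among partners of odorant-binding proteins in odor detection, Orco and Snmp1 were below FPKM 1. Orco, the co-receptor of most olfactory receptors, was at 0.108 FPKM, and Snmp1, a membrane protein of pheromone neurons, was at 0.384 FPKM. lush (Obp76a), the binding protein for the pheromone cVA, belongs to the family but its symbol was not among those chosen, and it stood at 1.01 FPKM (0.335 and 1.69). Of the 12 measured genes of odor reception and small secreted carriers, 6 were at FPKM 1 or more, against 74.5% of all genes listed. CG30172 was at 60.8 FPKM and Os-C at 6.75 FPKM. The highest were Phk-3, of a separate family of small chemosensory proteins, at 374 FPKM and Pino at 239 FPKM. In that list a10, another chemosensory protein gene, was at 0.190 FPKM and EbpIII at 4.62 FPKM, so that family too held both high and low genes.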

How the data were processed

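RNA of whole white prepupae was sequenced in 1 library per species. Per the labels and the study's methods, single-end reads were trimmed and aligned with TopHat, and the authors deposited FPKM per gene from Cufflinks with lower and upper bounds. Bowtie, SAMtools and, as build, dm3 are listed in the submitters' processing notes. No source used here gives tool versions for the RNA-seq, the annotation release or the strand of the reads. The D. melanogaster table was used, and the other 3 tables were not used here. Its 15494 rows give 15492 genes, and the rows of a gene were summed. Status was OK for 15403 rows and for all 50 members.

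Names came from a gene table by identifier, matching 14872 genes. Coordinates are those of the table with the start raised by 1 to count from 1. Strand, exons and protein length came from the annotation of Ensembl release 115 (BDGP6, the newer dm6 coordinates), looked up by identifier. There 20 of the 50 members have the same locus length as in the table. Reads were solved from the bounds, taken as FPKM plus or minus 2 times FPKM over the square root of the reads. They came out whole within 0.05 for 22 of 33 members with fewer than 300 reads, and 9 of the other 11 have more than 1 annotated transcript. Over all genes the share was 69.4%, so implied reads are estimates. The arithmetic was tested on data simulated with the same formula, which cannot show whether the Cufflinks bounds follow it. Ratios between neighbors are given with a 95% exact binomial interval only where neither gene failed that check; members with 300 or more reads were not checked. Intervals cover counting error only, and PCR copies are not independent molecules. No count test was run.

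Members and gene lists were chosen with earlier results of these data known. Every member is named, with full values for those at FPKM 100 or more. The lists were structural groups, seminal fluid, taste and antennal members, odor reception genes, and markers of fat body, salivary gland, male accessory gland, glia (6 of 6 at FPKM 1 or more, median 5.55) and neurons (4 of 5, median 4.71). Of 14 names each, the odor reception list also held Or83b and PebIII, older names of Orco and EbpIII, and the accessory gland list also held Acp70A, an older name of SP, so these genes were counted once. Acp33A was not matched to a listed gene. Promoter motifs, protein identity and cysteine numbers were planned and were not analysed here. Alternatives were other FPKM minimums, detection by the lower bound, rows with status OK, the family with lush, reads in place of FPKM, other gaps or map divisions for clusters, a pseudocount of 0.1 and a background of proteins of similar length. Tools were Python 3.11.15, scipy 1.17.1, numpy 2.4.6, matplotlib 3.10.9 and pandas 2.3.3.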

Additional observations from a re-analysis of the deposited data

How the results depend on the processing

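No paired analysis was possible because each species has 1 library here. At an FPKM minimum of 0.1 the count of detected members was 37 and at 5 it was 15, against 24 at a minimum of 1. Among members at FPKM 1 or more alone the median was 8.81 FPKM, against 0.915 FPKM over all 50, since that choice removes the low members. By reads in place of FPKM the share of Obp99b was 74.0%, against 76.6%. The median absolute log2 difference of neighbors in a cluster, 1.60, was 2.69 with a pseudocount of 0.1, 2.57 over pairs with a gene at FPKM 1 or more, chosen after seeing the data, 1.47 at a gap of 10 kb and 1.60 at 50 kb. In the other comparisons of counts the count moved by less than 1.5 times. With lush, 25 members were detected and 11 were listed at 0, and by a lower bound above 0 there were 24, with Obp50a in place of Obp56b. Rows with status OK removed no member and are no test. Clusters numbered 9 at a gap of 10 kb, 9 at 50 kb and 8 by map division, against 10. Against genes for proteins of 100 to 250 residues the median percentile of the members was 22.2, against 24.7 among all genes. Among members below FPKM 1 the depth of this library limits the order, since each rests on at most 5.34 implied reads.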

Other observations

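The gene names of divisions 57 and 99 are easily exchanged between sources. In the reference gene table Obp99b carries the older names Obp99d and tsx, Obp99c the older name Obp99b, and Obp99d the older name Obp99c. Obp57a and Obp57c are each an older name of the other, as are Obp57d and Obp57e. The levels given here are tied to the identifiers, with 12912 FPKM for FBgn0039685 (Obp99b), 1188 FPKM for FBgn0039682 (Obp99c) and 0 for FBgn0039684 (Obp99d). A source that used the older names would place the highest level of the family on the gene called Obp99d.

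What 1 read is worth differed among the members with reads from 0.0506 FPKM for Obp50b to 0.420 FPKM for Obp56g. Obp50b at 8.56 FPKM therefore rested on 169 implied reads, more than the 125 of Obp56a at 24.5 FPKM.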
